A study of Homo sapiens with 6 samples.

Results

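The genes described here are the expressed zinc finger genes named ZNF and a number, chosen by their counts in the SEM cell model of EGR3 overexpression. A gene was taken where its count reached 50 in each of the 3 SEM::EGR3 libraries or in each of the 3 SEM::mock libraries. Of 524 genes with such a name among 35410 listed genes, 287 met this rule, 281 of them protein coding and 6 pseudogenes. They fell into 190 genes that reached 50 counts in both lines, 90 that did so in SEM::EGR3 alone and 7 that did so in SEM::mock alone. The other 237 stayed below the minimum, and 3 of those had no count in any library. The rule asks for a level and not for a difference, but a gene that entered through a single line was chosen partly by that difference. Tests are therefore given for the 190 genes that passed in both lines, and the other 97 are described without a test.

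SEM is a cell line established from human proB leukemia and carries the KMT2A::AFF1 fusion. SEM::EGR3 cells carried an inducible EGR3 transgene and SEM::mock cells an empty vector, and both received 1 µg/mL doxycycline for the 48 h before RNA was extracted. Each line was measured in 3 biological replicates by MACE-Seq, which reads the 3′ ends of polyadenylated transcripts, so levels of different genes are compared here without a correction for length. Nothing in the labels says that the replicates came from separate transfections, so p-values measure the spread between these libraries. EGR3 itself, the check of the labels, had counts of 8, 10 and 6 in the replicates of SEM::mock, against 9768, 4952 and 5557 in SEM::EGR3 libraries.

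Library totals were 5286115 to 6181388 counts in SEM::mock and 7293092 to 15106018 in SEM::EGR3, so the minimum of 50 counts was easier to reach in SEM::EGR3. The markers of the labelled cell type separated the lines. Of 12 B-lineage markers, 9 had at most 3 counts in every SEM::mock library, PAX5, EBF1 and CD79A among them. In SEM::EGR3 this held for 3 of the 12, namely DNTT, BLNK and RAG2. The summed level of the 12 was 2.65 to 5.88 CPM (tags of a gene in every 1000000 of its library) in SEM::mock and 497 to 524 CPM in SEM::EGR3. Of 10 genes typical of KMT2A fusion leukemia, 5 were at that limit in SEM::mock and CD34 alone in SEM::EGR3, with sums of 51.8 to 59.0 and 1195 to 1252 CPM. Summed erythroid and megakaryocyte markers reached 3743 to 3885 CPM in SEM::mock and 2963 to 2976 CPM in SEM::EGR3, with HBB at the limit in both lines. Myeloid markers summed to 287 to 299 and 221 to 222 CPM, T cell markers to 86.2 to 98.1 and 66.9 to 69.8 CPM, and epithelial and fibroblast markers to 883 to 921 and 584 to 621 CPM, in SEM::mock and SEM::EGR3 respectively. These sums hide members that moved in opposite directions. Of the tested genes, 2 myeloid markers were called higher and 2 lower, 3 T cell markers higher and 3 lower, 2 erythroid and megakaryocyte markers higher and 6 lower, and 3 epithelial and fibroblast markers higher and 4 lower. CD3D fell from 58.1 to 6.26 CPM while LCK rose from 0.131 to 52.2 CPM, and LYZ fell from 155 to 42.7 CPM while CEBPA rose from 12.4 to 127 CPM. Since these marker levels differ between the same libraries as EGR3, they cannot be told apart from EGR3 overexpression in any difference given here.

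Proteins of the ZNF genes carry tandem C2H2 fingers, each a short fold around a zinc ion, and a row of fingers reads a stretch of DNA or, in a few members, RNA. Many also carry a KRAB box, which binds the corepressor TRIM28, and TRIM28 in turn brings the histone methyltransferase SETDB1 and HP1 proteins to the bound site. KRAB zinc finger genes multiplied by tandem duplication and lie in clusters, above all on chromosome 19, and many of their proteins silence transposable elements. Others act in blood formation, in basic promoter function or in RNA and ribosome biology.

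Promoter windows were available for 246 of the 287 genes, as 250 bases before and 50 after the RefSeq transcription start (GRCh38.p14). They held a median of 23.5 CG dinucleotides, compared with 14 over all 35116 RefSeq promoters, and ranged from 2 to 55. The RefSeq promoters were not chosen by expression, so they are no matched background. The cluster at chr19:19668796-24129961 had the highest median promoter identity of the large chromosome 19 clusters. Over the 78 pairs of its 13 members with a window, a median of 79.7% of bases were identical after global alignment. Medians in the other 7 large chromosome 19 clusters were 59.3% to 62.0%. No unrelated promoters were aligned, so the identity that this alignment gives to unlike sequences is not known here. These medians mix alike and unlike pairs, and pairs in the first cluster began at 58.0%. Single pairs reached 87.3% at chr19:51571298-53580269 and 91.3% at chr19:55476332-58481230. In the former, the pairs among ZNF611, ZNF701 and ZNF845 were 82.7% to 86.0% identical, so alike promoters are not particular to 1 cluster. The windows of ZNF93, ZNF85, ZNF91 and ZNF100 are printed because all of these genes had higher levels in SEM::EGR3 libraries. The pairs among these 4 were 80.3% to 84.7% identical. Letters run 5′ to 3′ and CG dinucleotides are in capitals.
ZNF93 (chr19:19900696-19900995, plus strand): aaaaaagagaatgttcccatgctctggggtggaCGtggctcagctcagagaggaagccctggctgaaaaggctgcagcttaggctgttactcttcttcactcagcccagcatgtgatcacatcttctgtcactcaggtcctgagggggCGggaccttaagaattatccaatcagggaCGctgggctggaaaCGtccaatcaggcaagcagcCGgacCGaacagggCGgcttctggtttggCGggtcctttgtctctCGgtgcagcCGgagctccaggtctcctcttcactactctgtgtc
ZNF85 (chr19:20923001-20923300, plus strand): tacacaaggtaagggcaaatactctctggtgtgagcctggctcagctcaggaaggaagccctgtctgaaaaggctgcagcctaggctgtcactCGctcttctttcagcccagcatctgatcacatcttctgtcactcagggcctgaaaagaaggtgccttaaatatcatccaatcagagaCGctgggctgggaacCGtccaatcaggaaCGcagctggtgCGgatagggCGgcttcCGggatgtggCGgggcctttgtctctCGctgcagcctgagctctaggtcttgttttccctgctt
ZNF91 (chr19:23395422-23395721, minus strand): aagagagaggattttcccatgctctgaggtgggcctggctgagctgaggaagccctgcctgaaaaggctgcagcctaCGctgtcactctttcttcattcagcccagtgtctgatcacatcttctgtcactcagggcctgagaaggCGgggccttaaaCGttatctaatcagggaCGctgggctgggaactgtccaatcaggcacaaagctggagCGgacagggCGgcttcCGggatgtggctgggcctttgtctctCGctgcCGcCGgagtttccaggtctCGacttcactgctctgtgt
ZNF100 (chr19:21767530-21767829, minus strand): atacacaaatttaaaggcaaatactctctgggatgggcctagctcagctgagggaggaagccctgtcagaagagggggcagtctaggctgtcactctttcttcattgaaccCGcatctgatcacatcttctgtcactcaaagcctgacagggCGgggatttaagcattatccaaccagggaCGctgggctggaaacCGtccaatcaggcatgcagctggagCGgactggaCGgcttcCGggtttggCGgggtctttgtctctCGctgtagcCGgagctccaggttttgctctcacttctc

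The next windows are examples of genes with a wide difference between the lines, and other genes differed as much or more. ZNF302, ZNF331 and ZNF423 were nearly or wholly without counts in SEM::mock, while ZNF280A and ZNF358 had their higher level there. ZNF280A had 5 CG dinucleotides in its window and ZNF358 had 32.
ZNF302 (chr19:34677428-34677727, plus strand): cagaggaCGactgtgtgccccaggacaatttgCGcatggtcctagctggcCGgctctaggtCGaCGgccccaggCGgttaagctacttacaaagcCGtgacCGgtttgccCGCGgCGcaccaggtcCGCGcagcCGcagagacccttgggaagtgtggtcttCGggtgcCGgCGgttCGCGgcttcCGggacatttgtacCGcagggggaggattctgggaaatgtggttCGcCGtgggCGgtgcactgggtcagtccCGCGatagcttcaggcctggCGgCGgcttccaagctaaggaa
ZNF331 (chr19:53520764-53521063, plus strand): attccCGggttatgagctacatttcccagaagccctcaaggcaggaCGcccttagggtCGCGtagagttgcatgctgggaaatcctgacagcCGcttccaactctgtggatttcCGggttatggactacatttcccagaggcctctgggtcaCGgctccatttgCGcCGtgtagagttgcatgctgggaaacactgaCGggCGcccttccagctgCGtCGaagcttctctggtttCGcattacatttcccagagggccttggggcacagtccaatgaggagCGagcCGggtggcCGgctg
ZNF423 (chr16:49664275-49664574, minus strand): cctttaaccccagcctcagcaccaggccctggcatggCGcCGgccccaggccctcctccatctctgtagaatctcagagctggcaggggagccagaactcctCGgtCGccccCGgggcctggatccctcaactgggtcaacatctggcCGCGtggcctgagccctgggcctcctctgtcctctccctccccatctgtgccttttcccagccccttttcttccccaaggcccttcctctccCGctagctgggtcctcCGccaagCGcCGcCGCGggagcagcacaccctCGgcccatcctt
ZNF280A (chr22:22520221-22520520, minus strand): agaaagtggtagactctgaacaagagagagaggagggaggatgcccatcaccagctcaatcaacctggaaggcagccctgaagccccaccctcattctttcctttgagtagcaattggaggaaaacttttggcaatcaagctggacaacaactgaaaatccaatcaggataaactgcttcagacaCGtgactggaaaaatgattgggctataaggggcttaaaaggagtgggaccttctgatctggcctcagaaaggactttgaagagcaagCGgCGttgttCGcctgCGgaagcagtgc
ZNF358 (chr19:7515853-7516152, plus strand): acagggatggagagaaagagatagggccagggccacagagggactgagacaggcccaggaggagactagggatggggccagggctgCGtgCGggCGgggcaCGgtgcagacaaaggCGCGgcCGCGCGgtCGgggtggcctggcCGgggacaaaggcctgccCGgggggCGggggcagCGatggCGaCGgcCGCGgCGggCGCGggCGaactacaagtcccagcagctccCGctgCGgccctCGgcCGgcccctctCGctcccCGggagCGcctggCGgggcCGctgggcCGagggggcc

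EGR proteins bind a GC-rich 9-base site. The words GCGTGGGCG and GCGGGGGCG were searched on both strands, and 18 of the 246 windows (7.32%) held at least one of them, compared with 5.77% of all RefSeq promoters. Both words hold CG dinucleotides, in which the windows are richer, and no promoters matched for CG content or expression were compared. Among genes past the minimum in both lines it was 13 of 164 windows (7.93%), and among those past it in SEM::EGR3 alone 3 of 76 (3.95%). Of the 6 windows of genes past it in SEM::mock alone, 2 held a word (33.3%). None of the 9 windows printed above held either word. Of the 13 genes with a word and 50 counts in both lines, 7 were called higher (53.8%) and 4 lower (30.8%). Over all 9412 listed genes with 50 counts in every library the shares were 29.2% and 40.0%. With 13 genes no direction is read from this, and the difference was not tested. A match of letters is a description and no evidence of binding.

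The levels of the 190 genes past the minimum in both lines were alike in the lines as a whole. Their median level was 21.6 CPM in SEM::mock and 21.1 CPM in SEM::EGR3, with quartiles of 14.7 to 33.7 and 15.7 to 34.8 CPM. Together they made up 0.574% to 0.593% of the counts in SEM::mock libraries and 0.579% to 0.597% in SEM::EGR3 libraries, ranges that overlap. These are scaled counts of whole cultures, in which fewer cells expressing a gene and less RNA per cell cannot be told apart.

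Single genes differed in both directions. In the quasi-likelihood test of edgeR, with p-values adjusted by Benjamini-Hochberg over 15465 tested genes, 57 of the 190 (30.0%) were called higher in SEM::EGR3 and 55 (28.9%) lower at an adjusted p under 0.05, and 78 were not called. Over all tested genes 36.5% were higher and 32.0% lower. Over the 9412 listed genes that had 50 counts in every library, the fitting background, 29.2% were higher and 40.0% lower. At this minimum the share of ZNF genes called higher was near that of other genes, and the share called lower was smaller than theirs. The difference was not tested. The median log2 fold change of the 190 was 0.034, and that of the 9412 was -0.073. Without SEM::mock replicate 2 the median of the 190 was -0.0028. Over the 99 ZNF genes with 100 counts in every library the median was -0.073. No direction is therefore read from the median of the 190.

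Most differences were small. The called increases ran from 0.23 to 1.03 on the log2 scale with a median of 0.51, and the called decreases from -0.16 to -1.61 with a median of -0.52. The standard error of a log2 fold change had a median of 0.11 over the 190 genes. In 132 of them (69.5%) the log2 fold change lay within 0.5 of zero. With a log2 fold change of at least 1 as a further condition, 2 of the 190 ZNF genes were higher and 7 lower. Of the 9412 genes, 392 (4.16%) were higher and 619 (6.58%) lower, so both ZNF shares were smaller. The libraries of the lines did not overlap for 118 of the 190 genes (62.1%), and did not overlap for 70.8% of the 9412.

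**Figure D1:**
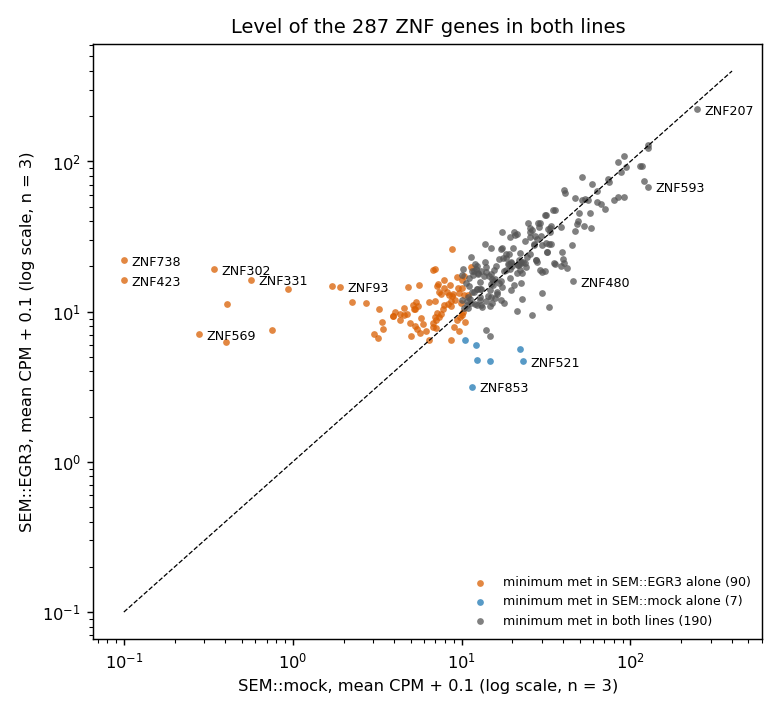
Mean level of each of the 287 ZNF genes in SEM::mock (x axis) and SEM::EGR3 (y axis), in CPM plus 0.1 on log scales, n = 3 libraries a line, where the dashed line marks equal levels and colours give the line or lines in which the gene had 50 counts in each library. The 190 genes past the minimum in both lines lie along the dashed line, and a tail of genes past the minimum in SEM::EGR3 alone, from ZNF93 to ZNF423 and ZNF738, reaches down to 0 CPM in SEM::mock.

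Among genes that reached 50 counts in both lines, the largest increases had a log2 fold change near 1. The minimum limits this class, because a gene that is low in SEM::mock leaves it, and larger increases stand among the genes past the minimum in SEM::EGR3 alone. One of these is ZNF264, chosen after its values were seen, with 57, 50 and 39 counts in SEM::mock and 435, 182 and 236 in SEM::EGR3, or 8.70 ± 1.24 and 26.2 ± 1.77 CPM (mean ± SD). ZNF48, a gene with 12 predicted fingers and no KRAB box at chr16:30378106-30400108, had 14.5, 13.9 and 12.7 CPM in SEM::mock replicates 1 to 3 and 27.8, 29.8 and 27.1 CPM in SEM::EGR3 replicates 1 to 3. All SEM::EGR3 libraries lay above all SEM::mock libraries, with a log2 fold change of 1.03 ± 0.11 (SE, n = 3 a line, adjusted p = 5.17e-09). ZNF771, the next ZNF gene downstream, rose alongside, from 17.5, 15.2 and 18.8 to 31.6, 35.3 and 34.7 CPM, a log2 fold change of 0.97 ± 0.10 (adjusted p = 7.61e-09). ZNF747, a KRAB gene in the same cluster of chromosome 16, went from 12.2, 12.4 and 11.4 to 20.5, 20.6 and 20.4 CPM (0.77 ± 0.11, adjusted p = 1.86e-06). At least 50% of the 50-base words in its 3′ end also occur in another gene, so its count is uncertain. The cluster at chr16:30378106-31917357 is not uniform, since ZNF629 in it fell with a log2 fold change of -0.72 ± 0.094 (adjusted p = 3.02e-07). Of its 12 genes with 50 counts in both lines, 5 were called higher, 1 lower and 6 neither way. Background shares were 29.2% higher and 40.0% lower.

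ZNF335, a subunit of histone H3K4 methyltransferase complexes that is needed for T cell maturation, had 12.02, 9.38 and 12.4 CPM in SEM::mock and 21.9, 24.8 and 22.3 CPM in SEM::EGR3. Its log2 fold change of 1.03 ± 0.12 was the other one to reach 1 (adjusted p = 7.34e-08), again without overlap between the libraries. ZNF100, a KRAB gene of the chromosome 19 cluster with the highest median promoter identity, went from 10.6, 8.71 and 10.98 CPM to 18.8, 19.8 and 18.5 CPM (0.91 ± 0.13, adjusted p = 6.69e-07). ZNF37A, a KRAB gene near the centromere of chromosome 10, stood at 14.8 ± 1.68 CPM (mean ± SD) in SEM::mock and 26.6 ± 2.28 CPM in SEM::EGR3. ZNF839 rose from 9.94 ± 1.53 to 17.3 ± 2.92 CPM, though an exon of CINP on the opposite strand overlaps its 3′ end and the use of strand in counting is not given in the sources used here. ZNF84, with 19 fingers and a KRAB box, rose from 20.3 ± 2.77 to 34.01 ± 0.768 CPM. In the cluster of ZNF84 at the end of the long arm of chromosome 12, ZNF26, ZNF140 and ZNF268 rose as well, by 0.31, 0.67 and 0.44 on the log2 scale. These are all 4 genes of that cluster with 50 counts in both lines, and DESeq2 called 3 of them higher. The cluster was picked after its values were seen. Background shares were 29.2% higher and 40.0% lower. Exons on the opposite strand overlap the 3′ ends of ZNF140 (ZNF891) and ZNF26 (AC073911.1), so these 2 carry the same limit as ZNF839.

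The largest decreases of the same class follow, and their size is not compared with that of the increases because of the minimum. ZNF358, a gene with 9 predicted fingers and no KRAB box at chr19:7515292-7521026, had 35.3, 35.5 and 28.04 CPM in SEM::mock and 11.7, 8.76 and 11.4 CPM in SEM::EGR3. Its lowest SEM::mock library stood far above its highest SEM::EGR3 library, and the log2 fold change was -1.61 ± 0.12 (adjusted p = 1.28e-11). ZNF480, a KRAB gene of the chromosome 19 cluster around ZNF83, fell from 45.4, 46.4 and 45.9 to 13.2, 16.2 and 18.1 CPM (-1.57 ± 0.10, adjusted p = 9.10e-13). The SEM::mock libraries of ZNF480 were nearly equal. An exon of AC010320.4 on the opposite strand overlaps the 3′ end of ZNF480. ZNF595, a KRAB gene with 17 fingers close to the end of the short arm of chromosome 4, went from 25.98, 24.3 and 27.8 to 9.16, 11.05 and 7.85 CPM (-1.49 ± 0.12, adjusted p = 1.05e-10). ZNF175, known as a repressor of chemokine receptor genes, fell from 26.5, 34.5 and 28.2 to 14.6, 11.2 and 13.6 CPM (-1.15 ± 0.12, adjusted p = 5.22e-09).

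ZNF321P, a pseudogene of the same cluster, fell from 14.7 ± 1.76 to 6.84 ± 1.32 CPM, but 53.4% of the words in its 3′ end recur in other genes. ZNF518B, described as a partner of the histone methyltransferase G9a, went from 37.6, 42.7 and 46.1 to 21.8, 17.5 and 18.6 CPM (-1.09 ± 0.10, adjusted p = 5.62e-10). ZNF512B, a NuRD-binding protein, fell from 21.1 ± 1.06 to 10.04 ± 0.554 CPM, with an exon of UCKL1-AS1 across its 3′ end on the opposite strand. ZNF777, a KRAB gene of chromosome 7, went from 39.6, 38.9 and 38.4 to 19.9, 19.9 and 20.6 CPM (-0.95 ± 0.086, adjusted p = 5.26e-10). Of the 7 genes of its cluster at chr7:149069643-150398631 with 50 counts in both lines, 4 were called lower and 0 higher by edgeR. None was higher at an unadjusted p under 0.05, and DESeq2 called 3 lower and 0 higher. The 4 were ZNF282 (-0.36), ZNF777, ZNF746 (-0.74) and ZNF775 (-0.31). Of the 9412 background genes, 40.0% were lower and 29.2% higher. The cluster was recounted because its calls were seen to go in 1 direction, so the recount is a description and no support.

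**Figure D2:**
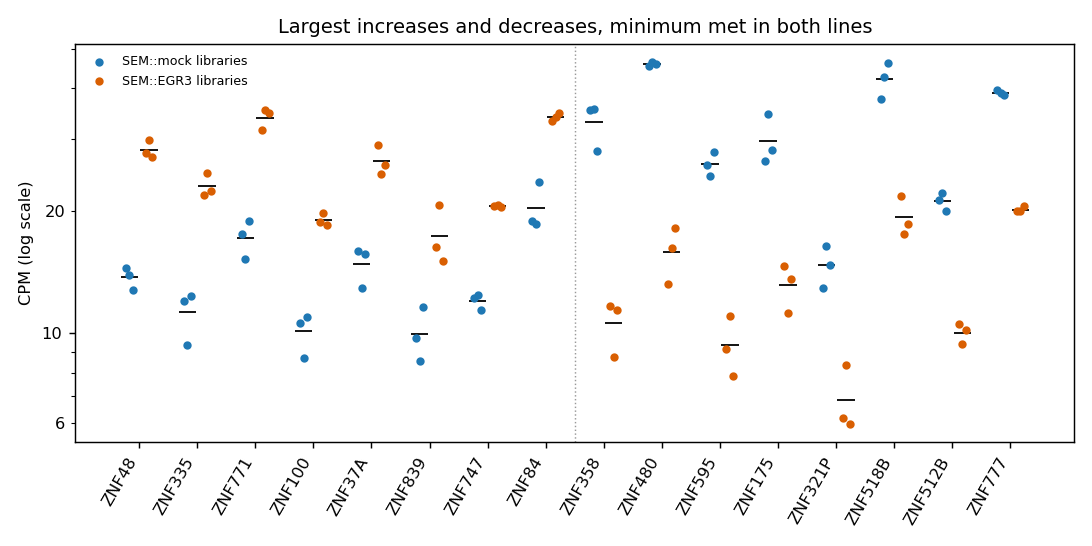
Level in CPM (log scale) of the 8 genes with the largest increase (left of the dotted line) and the 8 with the largest decrease (right) among genes with 50 counts in both lines. Each point is a library and each bar the mean of 3. No SEM::EGR3 library overlaps a SEM::mock library for any of the 16 genes, and ZNF358 has the largest fold, with means of 32.96 and 10.6 CPM.

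The 5 ZNF genes with the highest mean over both lines had log2 fold changes of -0.33 to 0.03. In SEM::mock taken alone ZNF593, which fell, had a mean of 128 CPM and ranked above 4 of these 5. ZNF207, which loads the checkpoint protein BUB3 onto kinetochores, was the highest of all 287, at 251, 247 and 245 CPM in SEM::mock and 225, 220.2 and 221 CPM in SEM::EGR3. The lines did not overlap, but the log2 fold change was -0.16 ± 0.052 (adjusted p = 0.00892), and without normalization factors it was -0.081 and not called (adjusted p = 0.175). ZNF24, a SCAN domain factor, stood at 127 ± 7.69 and 129 ± 4.59 CPM with overlapping libraries (0.03 ± 0.06, adjusted p = 0.672). ZNF385A, an RNA-binding protein that also interacts with p53, gave 126 ± 8.49 and 124 ± 7.78 CPM, with overlap (-0.029 ± 0.063, adjusted p = 0.702). ZNF121 (-0.33 ± 0.058) and ZNF451, a SUMO ligase (-0.27 ± 0.06), were called lower, from 116 and 113 CPM in SEM::mock.

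The genes with the smallest change show how closely the lines could match. ZNF445, a KRAB factor that protects imprinted loci, had 17.8, 21.4 and 18.6 CPM in SEM::mock and 18.8, 18.1 and 20.999 CPM in SEM::EGR3. ZNF106 had 63.2 ± 3.95 and 63.2 ± 5.27 CPM, and ZNF8, a KRAB gene near the end of chromosome 19, 12.8 ± 1.67 and 12.5 ± 1.73 CPM. Their log2 fold changes were -0.007 ± 0.11, 0.0094 ± 0.074 and 0.01 ± 0.14 (SE), each with overlapping libraries and a sign that depended on the normalization or the libraries used.

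The proteins themselves gave 2 features that the rule did not use. Translation of GENCODE coding transcripts found a KRAB box in 165 of the genes and none in 117, and 5 had no coding transcript. Of the 90 KRAB genes with 50 counts in both lines, 26 were called higher and 19 lower, with a median log2 fold change of 0.057. Of the 96 without a KRAB box, 31 were higher and 35 lower, with a median of -0.0068. The difference between them was not tested. The 68 genes on chromosome 19 gave 17 higher and 15 lower with a median of 0.074. The 552 other genes of that chromosome gave 163 and 223 with a median of -0.066. At a minimum of 100 counts in every library, both the KRAB and the chromosome 19 genes had more decreases than increases. No direction is therefore read from either group. By number of fingers, 11 of 52 genes with 1 to 5 fingers were higher and 21 lower (21.2% and 40.4%). The counts were 30 and 24 of 82 genes with 6 to 12 fingers, and 15 and 8 of 49 genes with 13 or more. Over the 9412 background genes, which stand beside all groups of this paragraph, 29.2% were higher and 40.0% lower. The share lower at 1 to 5 fingers was thus near that of all genes. No group was tested against another.

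**Figure D3:**
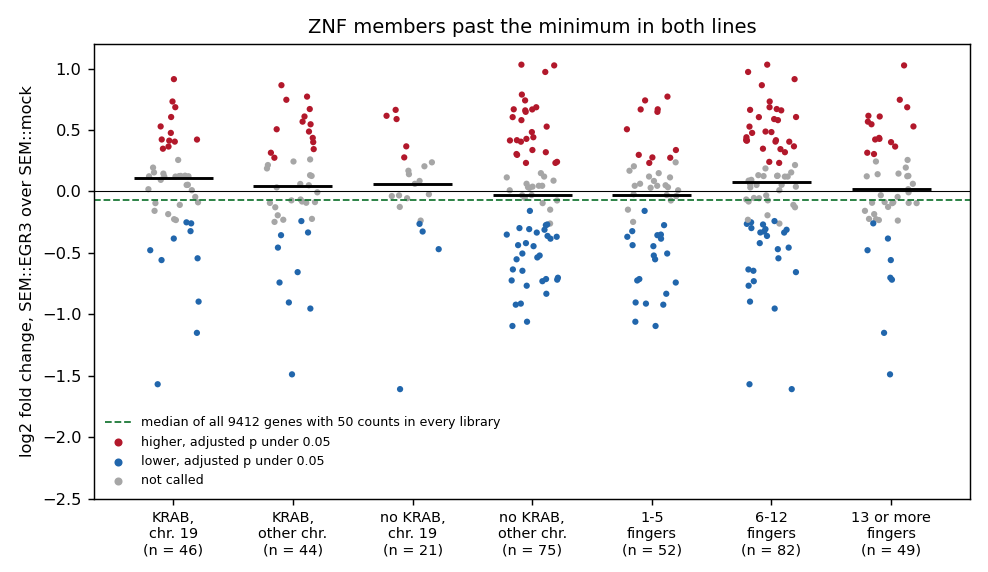
Log2 fold change (y axis, SEM::EGR3 over SEM::mock) of genes with 50 counts in both lines, grouped by KRAB box and chromosome and, separately, by number of fingers, so that a gene appears in both sets of columns. Black bars are medians, which lie between -0.029 (no KRAB box, other chromosomes) and 0.11 (KRAB, chromosome 19), and the dashed line is the background median of -0.073.

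When ZNF genes no more than 1 Mb apart were joined, chromosome 19 held 8 clusters with members and at least 5 ZNF genes, lettered A to H from the short-arm end. Smaller groups were left without a letter. Cluster C, at chr19:19668796-24129961, held 41 ZNF genes, 16 of them past the minimum. Of its 8 genes with 50 counts in both lines, 5 were called higher and 0 lower by edgeR. None was lower at an unadjusted p under 0.05, and DESeq2 called 4 higher and 0 lower. The 5 were ZNF101 (0.42 ± 0.11), ZNF430 (0.35 ± 0.12), ZNF714 (0.59 ± 0.071), ZNF431 (0.48 ± 0.082) and ZNF100. The remaining 3, ZNF429, ZNF681 and ZNF254, were not called, at 0.12 ± 0.12, 0.13 ± 0.13 and 0.15 ± 0.13. By contrast, cluster G (chr19:51571298-53580269) gave 4 higher and 4 lower of 15 such genes, and it held ZNF175, ZNF480 and ZNF321P among the decreases and ZNF766 (0.61 ± 0.10) and ZNF83 (0.53 ± 0.10) among the increases. Cluster H (chr19:55476332-58481230) gave 4 higher and 5 lower of 18, and cluster A (chr19:7069444-9793180) gave 2 higher and 4 lower of 9. The background of 9412 genes gave 29.2% higher and 40.0% lower. These counts are descriptions, and no cluster was tested against the others.

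**Figure D4:**
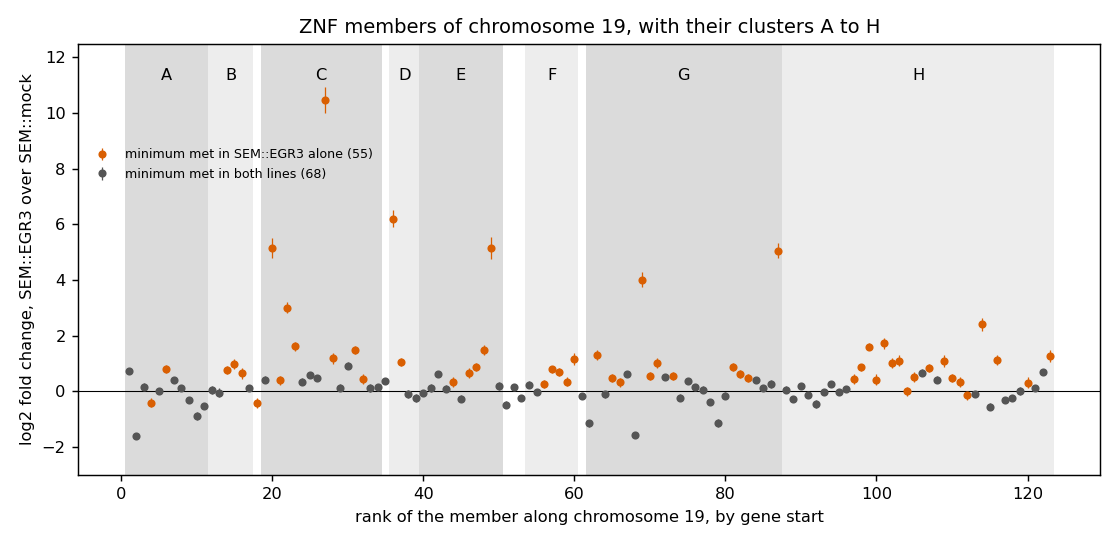
Fitted log2 fold change (y axis, bars are the SE) of the 123 ZNF genes of chromosome 19 that met the rule, in their order along the chromosome (x axis, rank). Shaded bands are clusters A to H. Genes past the minimum in both lines lie between -1.61 and 0.91, and the high points are genes with few or no SEM::mock counts, whose fitted value depends on the prior count.

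The 90 genes that passed the minimum in SEM::EGR3 alone are a mixture. In 55 of them every SEM::mock library held at least 25 counts. ZNF550 (42, 65 and 61 counts in SEM::mock, 166, 67 and 90 in SEM::EGR3), ZNF717 and ZNF33B had log2 fold changes of -0.001, -0.014 and -0.046. Over the 90 the median level was 6.72 CPM in SEM::mock and 10.8 CPM in SEM::EGR3, values that the rule itself helped to set. When the minimum was set at the CPM of 50 counts in the shallowest library (9.81 CPM), 50 ZNF genes passed in SEM::EGR3 alone, 16 in SEM::mock alone and 171 in both. Over all listed genes these numbers were 1101, 620 and 8846. The 2 members just inside the minimum were ZNF248, with 107, 63 and 50 counts in SEM::EGR3, and ZNF717, with 98, 54 and 50. Just outside were ZNF462 with 131, 49 and 65 and ZNF486 with 100, 49 and 60.

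In 10 of the 90 no SEM::mock library held more than 10 counts. ZNF738 at chr19:21358930-21379302, in cluster C, counted 0, 0 and 0 in SEM::mock libraries but 341, 145 and 219 in SEM::EGR3 libraries, or 21.99, 19.5 and 24.2 CPM. Against a floor of 3 counts per SEM::mock library its mean level was at least 40.6-fold higher. Its translated transcript holds a KRAB box and no complete finger. ZNF423 at chr16:49487524-49857919, a protein of 27 predicted fingers that binds EBF1 and restrains it, counted 0, 0 and 0 in SEM::mock libraries but 276, 113 and 137 in SEM::EGR3 libraries, at least 29.7-fold higher. EBF1, its partner, likewise counted 0, 0 and 0 in SEM::mock libraries but 2058, 925 and 1145 in SEM::EGR3 libraries.

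ZNF302 in cluster D counted 3, 0 and 1 in SEM::mock libraries but 268, 151 and 177 in SEM::EGR3 libraries, a ratio of the summed and scaled counts of 77.95-fold (95% counting interval 30.3 to 287). ZNF331 at the distal end of cluster G, an imprinted KRAB gene in many tissues, had 1, 5 and 2 and 260, 119 and 144 counts, or 34.2-fold (95% counting interval 17.2 to 79.6). ZNF528, in the same cluster, had 4, 6 and 4 and 196, 123 and 115 counts, or 16.2-fold (95% counting interval 9.56 to 29.9). Its neighbour ZNF480 went the other way. ZNF506 and ZNF93 in cluster C had 1, 1 and 3 and 10, 10 and 10 counts in SEM::mock, against 171, 98 and 84 and 222, 96 and 147 in SEM::EGR3. The ratios were 36.9-fold (95% counting interval 15.7 to 114) and 8.11-fold (95% counting interval 5.60 to 12.2). ZNF569 of cluster E had 1 count in each SEM::mock library and 103, 57 and 60 in SEM::EGR3, or 38.4-fold (95% counting interval 12.96 to 187). ZNF594 on chromosome 17 and ZNF704 on chromosome 8 completed the 10, with ratios of 11.4-fold (95% counting interval 6.27 to 23.2) and 19.9-fold (95% counting interval 8.37 to 61.9). These intervals cover counting error only and are no test, since the genes were chosen by their low SEM::mock counts. The spread between replicates of a line was 1.71 to 3.32 times counting noise (chi-square per degree of freedom). The intervals are therefore too narrow.

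All 7 genes past the minimum in SEM::mock alone still had counts in SEM::EGR3. ZNF521 at chr18:25061926-25352190, a close relative of ZNF423 that is expressed in blood progenitors and also binds EBF1, counted 141, 143 and 103 in SEM::mock libraries but 66, 31 and 48 in SEM::EGR3 libraries. In CPM these were 24.9, 23.95 and 20.2 against 4.26, 4.18 and 5.31, a fitted log2 fold change of -2.34. No test is read from it, since the gene entered through SEM::mock alone. The pair ZNF423 and ZNF521 thus had opposite levels, with ZNF423 counts in SEM::EGR3 libraries alone and most ZNF521 transcripts in SEM::mock. ZNF280A had 20.7, 23.8 and 22.2 CPM in SEM::mock and 5.10, 5.66 and 5.86 CPM in SEM::EGR3. Its neighbour and relative ZNF280B, which passed in both lines, fell from 40.3 ± 3.95 to 21.1 ± 2.54 CPM (-0.91 ± 0.10, adjusted p = 1.50e-08). Both lie within the immunoglobulin lambda locus on chromosome 22. ZNF853, ZNF783, ZNF124, ZNF215 and ZNF697 had log2 fold changes of -1.92, -1.65, -1.40, -0.995 and -0.73.

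**Figure D5:**
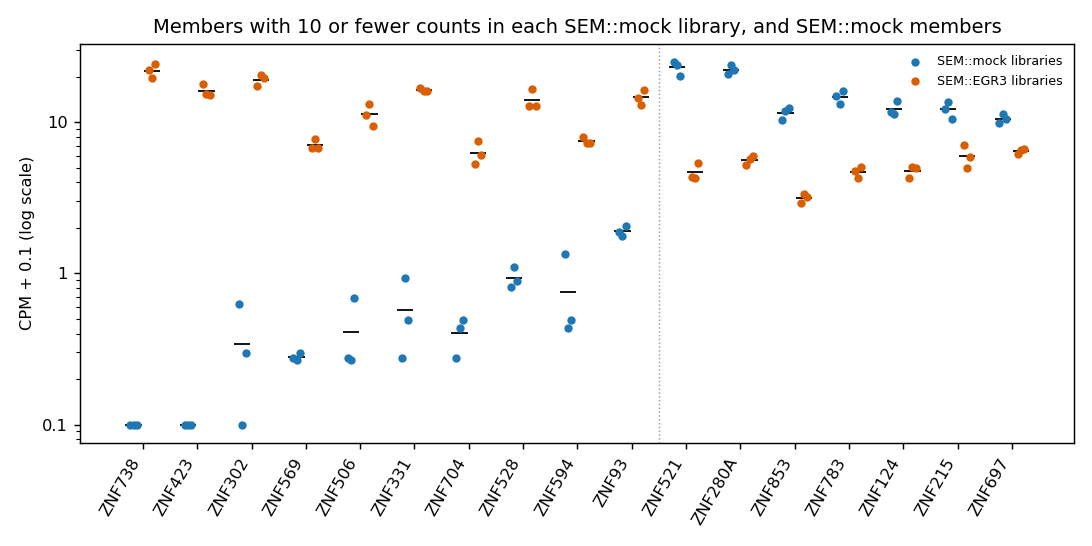
Level in CPM plus 0.1 (log scale) of the 10 genes with at most 10 counts in each SEM::mock library (left of the dotted line) and the 7 genes that met the minimum in SEM::mock alone (right). Points are libraries and bars their means. The left group spans 0 to 1.96 CPM in SEM::mock and 5.22 to 24.2 CPM in SEM::EGR3, and the right group has its higher level in SEM::mock.

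Grouped by role, the factors named in blood or leukaemia had 13 members of 16 genes. Of the 9 with 50 counts in both lines, 4 were called higher and 3 lower. For this list and those below, the background of 9412 genes gave 29.2% higher and 40.0% lower. ZNF384, a fusion partner in B-cell precursor leukemia, rose from 27.9, 24.8 and 25.9 to 34.8, 35.3 and 34.7 CPM (0.41 ± 0.087, adjusted p = 1.71e-04). ZNF362, its closest relative and another fusion partner, counted 5, 13 and 9 in SEM::mock libraries but 221, 114 and 134 in SEM::EGR3 libraries. ZNF292 rose (0.69 ± 0.12). ZNF687 was called higher (0.32 ± 0.11), but its libraries overlapped, with 27.8 CPM in SEM::mock replicate 2 and 27.4 CPM in SEM::EGR3 replicate 3. An exon of PI4KB on the opposite strand overlaps its 3′ end. ZNF592, which shares a complex with ZNF687, fell (-0.31 ± 0.11), as did ZNF217, an amplified oncogene in breast cancer (-0.33 ± 0.11), and ZNF609 (-0.44 ± 0.081).

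Among general promoter and chromatin factors, 5 of 17 genes with 50 counts in both lines were called higher and 7 lower. These are 29.4% and 41.2%, near the background shares of 29.2% and 40.0%. The relatives ZNF143 and ZNF76, which bind the same promoter element, rose together, from 10.9 ± 0.939 to 16.7 ± 0.308 CPM and from 31.1 ± 5.26 to 43.8 ± 2.38 CPM. ZNF148 rose (0.65 ± 0.12) while its relative ZNF281 fell (-0.51 ± 0.086), with edgeR adjusted p of 4.43e-05 and 1.31e-05. ZNF131 (-0.71), ZNF652 (-0.77) and ZNF639 (-0.73) fell as well, and so did ZNF518A (-0.38), the paralog of ZNF518B. ZNF516 and ZNF296 entered through SEM::EGR3 alone, with 18, 10 and 15 and 12, 26 and 18 counts in SEM::mock and 148, 92 and 110 and 116, 52 and 74 in SEM::EGR3.

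The proteins of RNA, ribosome and spindle function had 1 of 11 genes called higher, 4 lower and 6 neither way. Background shares were 29.2% higher and 40.0% lower, and the list was not tested against them. ZNF593, which acts in the export and maturation of the large ribosomal subunit, fell from 136, 120.4 and 128 to 64.3, 72.9 and 66.4 CPM (-0.92 ± 0.066, adjusted p = 5.34e-12). An exon of AL391650.1 on the opposite strand overlaps its 3′ end. ZNF330, a nucleolar protein, fell (-0.54 ± 0.069), as did ZNF326 of the DBIRD complex, which couples splicing to elongation (-0.27 ± 0.076). ZNF706 rose from 91.9 ± 5.87 to 108 ± 0.755 CPM. ZNF598, a ubiquitin ligase for collided ribosomes, was not called (0.063 ± 0.07), nor was ZNF622 (-0.15 ± 0.079).

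Of the 15 KRAB factors tied to transposons or imprinting, 10 were members, and of the 6 with 50 counts in both lines 2 were called higher and 1 lower. The increases were ZNF100 and ZNF765 (0.41 ± 0.12), and the decrease was ZNF274 (-0.32 ± 0.10), which marks the 3′ ends of ZNF genes for silencing. The other 4 entered through SEM::EGR3 alone. ZNF91, the repressor of SVA elements, had 6.72, 7.37 and 6.08 CPM in SEM::mock and 20.3, 19.3 and 16.9 CPM in SEM::EGR3. ZNF93, the repressor of LINE-1 elements, had 1.77, 1.67 and 1.96 and 14.3, 12.9 and 16.2 CPM. ZNF85 had 4.72 ± 0.660 and 14.4 ± 0.677 CPM, and ZNF10, in which the KRAB repression domain was first studied, 4.47 ± 1.01 and 10.5 ± 1.17 CPM.

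SCAN domain factors, which pair through that domain, had 2 of 13 genes with 50 counts in both lines called higher and 6 lower. These are 15.4% and 46.2%, beside background shares of 29.2% and 40.0%, and were not tested against them. ZNF232 (0.74 ± 0.13) and ZNF213 (0.51 ± 0.12) rose. The decreases were ZNF496 (-0.83 ± 0.088), ZNF397 (-0.63 ± 0.10), ZNF394 (-0.46 ± 0.11), ZNF500 (-0.45 ± 0.14), ZNF75A (-0.35 ± 0.095) and ZNF274, which the list shares with the previous one. ZNF446 entered through SEM::EGR3 alone, from 3.81 ± 1.63 to 9.24 ± 1.02 CPM. The lists were written with earlier results of these data known, so their counts are descriptions.

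The list of KRAB corepressor partners holds TRIM28 and other silencing factors, most of which do not bind the KRAB box itself. All had 50 counts in both lines, and 9 of 20 were called higher and 5 lower. TRIM28 itself, at 477, 517 and 509.9 CPM in SEM::mock and 456, 415 and 417 CPM in SEM::EGR3, fell slightly (-0.22 ± 0.054, adjusted p = 7.96e-04). SETDB1 rose from 22.8 ± 1.70 to 34.2 ± 3.07 CPM and its cofactor ATF7IP from 26.02 ± 1.86 to 47.6 ± 3.75 CPM. Among HP1 genes CBX5 rose (0.40 ± 0.075), CBX3 fell (-0.38 ± 0.053) and CBX1 was not called (-0.024 ± 0.063). UHRF1, the reader that directs DNMT1, had the largest change of the list, from 13.3 ± 1.72 to 50.6 ± 7.23 CPM. MORC3 (-0.72) and the HUSH subunit PPHLN1 (-0.63) fell, while the HUSH subunit TASOR rose (0.60).

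Counts of related genes can be mixed where their 3′ ends agree. Of the 287 genes, 155 shared no 50-base word of their last 500 transcript bases with another gene, and 8 shared at least 50% of them. Besides ZNF747 and ZNF321P these were ZNF490, ZNF395, ZNF286B, ZNF700, ZNF320 and ZNF286A. For 42 genes an exon of another gene lies within the last 500 bases, on the opposite strand for 32. Beyond those flagged above, the latter include ZNF384, ZNF394, ZNF446, ZNF451, ZNF500, ZNF518A, ZNF598, ZNF550, ZNF717 and ZNF215. Of the 160 genes past the minimum in both lines without such an exon, 46 were called higher and 46 lower, with a median log2 fold change of 0.031.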

How the data were processed

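RNA of 3 SEM::mock and 3 SEM::EGR3 replicates was measured by MACE-Seq. For each gene the authors deposited raw read counts of every library. They also deposited CPM values (headed TPM), scaled by a library total, and counts divided by a size factor, a normalized signal. The raw counts were analysed, and the other scales were only checked against them. The deposited log2 fold changes and p-values of the authors' own comparison were not used. The submitters' processing notes name bcl2fastq, Bowtie2, HTSeq and GRCh38. Strand setting, annotation release and treatment of multiply mapped reads are not given in the sources used here.

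The ZNF genes and all gene lists were chosen with earlier results of these data known. Counts were fitted in R 4.3.3 with edgeR 4.0.16 (filterByExpr, TMM, glmQLFit, glmQLFTest, 2 groups, 15465 tested genes, Benjamini-Hochberg), checked on simulated data, with DESeq2 1.42.0 as an alternative. CPM are counts per 1000000 TMM-scaled counts, and a standard error is the log2 fold change divided by the square root of its F. Positions, 3′ ends and coding sequences come from GENCODE release 29 (GRCh38), which holds all 287 genes and 96.9% of the listed identifiers. Promoters come from RefSeq (GRCh38.p14).

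Without a table of proteins, the KRAB split was planned to be left out. It was made after all from translated GENCODE transcripts, scored with a profile of 42 residues built from 213 sequence windows. The threshold was 20 bits, with no score between 0.615 and 25.7. Named genes were the 8 largest increases and 8 largest decreases with non-overlapping libraries, the 5 highest levels and the 3 smallest changes among genes past the minimum in both lines, the extremes of the 1-line genes, the 2 genes on either side of the minimum, up to 4 genes of each list, and genes whose role is stated. Cluster neighbours of these genes and ZNF264 were named after their values were seen. Clusters were recounted with DESeq2 only where their edgeR calls went in 1 direction, so these recounts are descriptions. The alternatives were other normalizations and filters, DESeq2, a replicate block, each library left out, a fold limit, other minimums, and, added later, genes without shared 3′ ends. The replicate libraries of a line differed by more than counting noise, so none was counted as a duplicate. Intervals and floors (3 counts) cover counting error only.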

Additional observations from a re-analysis of the deposited data

How the results depend on the processing

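With leaving out of 1 library at a time, DESeq2, upper-quartile or no normalization factors, either filter, 10 CPM as the minimum or without genes of shared 3′ ends, every count of called ZNF, KRAB or chromosome 19 genes stayed within 1.5 times its value. At a log2 fold change of at least 1, 2 ZNF genes were higher and 7 lower, with 0 and 3 of the KRAB genes and 0 and 4 of those on chromosome 19. Among the 99 genes with 100 counts in every library, 23 were higher. Of the KRAB genes among them 6 were higher and 12 lower, and of the chromosome 19 genes 4 and 8. In the main count these were 26 and 19 KRAB genes and 17 and 15 chromosome 19 genes. The balance of both groups thus turned with the minimum, and the cause was not tested. The median log2 fold change of the ZNF genes was 0.11 without normalization factors, 0.084 with at least 10 counts in every library and -0.073 over those 99 genes, where the cause was not tested. It ran from -0.0028 (without SEM::mock replicate 2) to 0.046 (without SEM::EGR3 replicate 2). Without normalization factors the background had 34.8% higher and 34.1% lower, and the ZNF genes 66 higher and 48 lower of 190.

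Deviations of same-numbered libraries had correlations of -0.19, -0.14 and -0.067, so the numbers were not taken as pairs. With the replicate block, 56 ZNF genes were higher and 54 lower, and the median was 0.027.

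Of 746 refits of 63 named genes, 707 kept direction and call, 2 lost the call (both ZNF207) and 37 changed sign, all for genes not called. Without normalization factors the log2 fold changes were 0.049 (ZNF385A), 0.071 (ZNF445), 0.078 (ZNF550), 0.064 (ZNF717) and 0.032 (ZNF33B). With upper-quartile normalization they were 0.0082 (ZNF445), 0.014 (ZNF550) and 0.0017 (ZNF717). With at least 10 counts in every library they were 0.022 (ZNF385A), 0.044 (ZNF445), 0.049 (ZNF550), 0.037 (ZNF717) and 0.0039 (ZNF33B). With the replicate block they were 0.00069 (ZNF445), -0.00037 (ZNF106), -0.022 (ZNF8) and 0.0034 (ZNF550), and ZNF8 had -0.012 by DESeq2. Leaving out 1 library gave -0.033 to 0.059 for ZNF24, -0.084 to 0.016 for ZNF385A, -0.081 to 0.067 for ZNF445, -0.057 to 0.068 for ZNF106, -0.14 to 0.086 for ZNF8, -0.20 to 0.11 for ZNF550, -0.26 to 0.28 for ZNF717 and -0.15 to 0.062 for ZNF33B. Depth limits the 10 genes with at most 10 counts in each SEM::mock library, whose folds are known only as intervals or bounds.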

Other observations

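Other zinc finger families with 50 counts in every library gave other counts. Of 26 ZBTB genes, which join fingers to a BTB domain, 9 were called higher in SEM::EGR3 and 4 lower, with a median log2 fold change of 0.035. Of 12 ZSCAN and ZKSCAN genes, 1 was higher and 5 lower, with a median of -0.16. Both ZFP genes past that minimum were higher. Over all genes with 50 counts in every library the shares were 29.2% higher and 40.0% lower, and the families were not tested against each other or against the ZNF genes.

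The members as a whole took 0.637% to 0.658% of the counts in SEM::mock libraries and 0.686% to 0.709% in SEM::EGR3 libraries. The rule bears on these values, since 90 genes entered through SEM::EGR3 and 7 through SEM::mock.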
